A study of Mus musculus with 6 samples.

Results

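Expression of enzymes of the citrate cycle, of pyruvate entry into mitochondria and of the malate shuttle was compared in parietal cells of control and noggin mice. Members were chosen by name, as rows of the deposited table whose identifier was 1 of 32 listed symbols. The table held 30 of these among 23284 genes. The other two, Mpc1 and Mpc2, stood in it under the older symbols Brp44l and Brp44, a match taken from RefSeq synonyms, and are described but not counted with the 30. All 30 passed the filter on low values.

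RNA came from parietal cells, which secrete acid in the stomach, in 3 control and 3 noggin libraries. Control cells had the genotype label Transgenic-Tom (the red fluorescent protein tdTomato). Noggin cells had the label Transgenic-Tom-nog and also expressed noggin, a secreted protein that binds and blocks bone morphogenetic proteins. Per the design text, the noggin mice carried Cre and noggin transgenes, both under the H+/K+ ATPase promoter of parietal cells, and a Rosa26 tdTomato reporter, and tdTomato-labelled cells were sorted by flow cytometry. The labels do not say whether controls carried Cre. Nor do they give age, sex, strain or how many animals went into each replicate, so p-values measure only the spread between these libraries.

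Pyruvate, the end product of glycolysis, crosses the inner mitochondrial membrane through the MPC1 and MPC2 carrier. The pyruvate dehydrogenase complex then turns it into acetyl-CoA, or pyruvate carboxylase turns it into oxaloacetate. The citrate cycle oxidises acetyl units and passes electrons to the respiratory chain, while cytosolic and mitochondrial malate dehydrogenases and aspartate transaminases move reducing equivalents across the membrane. Parietal cells are packed with mitochondria, which supply the ATP used by the proton pump.

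Values are FPKM, fragments scaled by transcript length and library size, as deposited. Levels of different genes are compared on this scale, although fold changes still moved with transcript length, as given below. Nog was at 0.871 to 1.97 FPKM in control and at 2281 to 2734 FPKM in noggin libraries, as the labels say. Parietal markers were abundant in every library, with a sum over 10 genes of 32925 to 40176 FPKM in controls against 28731 to 32036 FPKM with noggin. Of these 10, 8 were lower and 1 higher in all noggin libraries. Atp4a, the proton pump's catalytic subunit, was at 13385 to 16218 FPKM in controls against 5433 to 7619 FPKM with noggin (log2 fold change -1.21, limma adjusted p = 0.124), and Atp4b, its other subunit, at 16877 to 21417 against 21468 to 25184 FPKM. Markers of other cell types were present too. Markers of pepsinogen-secreting chief cells summed to 60942 to 112019 FPKM over 6 genes in controls and 131323 to 357848 FPKM in noggin libraries, more than the parietal markers in each. Of these 6, 2 were higher in all noggin libraries and 0 lower. Surface pit cell markers summed to 9261 to 14186 against 9216 to 23778 FPKM, with 0 of 5 higher and 1 lower without overlap. Stromal markers summed to 1.21 to 1.81 against 1.88 to 7.32 FPKM, and each of the 7 overlapped. In bulk RNA, fewer cells of a type and less RNA per cell cannot be told apart. Noggin replicate 3 stood apart, with 542 of 10644 tested genes listed at 0 against 19 to 34 in each other library. None of the 30 members was listed at 0 in any library.

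Of the 30 members, 1 rose in noggin cells: Me1, which encodes cytosolic malic enzyme, the NADP-dependent enzyme that turns malate into pyruvate. Limma with Benjamini-Hochberg adjustment over all 10644 tested genes called 1 of 30 members (3.33%), beside 2.44% of all tested genes. That member was higher, beside 1.75% of all tested genes, and 0 members were lower, beside 0.695%. At an unadjusted limma p under 0.05 there were 2 members higher and 7 lower, 9 of 30, beside 26.7% of all tested genes. Levels of the groups did not overlap for 11 members (36.7%), 4 higher and 7 lower in noggin libraries, beside 38.3% of all tested genes (20.3% higher and 18.0% lower). These shares were near those of the whole table.

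The median log2 fold change (noggin minus control, of FPKM + 1) over the 30 members was -0.21, beside -0.03 over all tested genes. It was negative for 20 members and positive for 10, from -0.94 for Ogdh to 1.70 for Me1. Without noggin replicate 1 the median was -0.01, with 15 members positive, and with libraries rescaled to the same total 1 was positive. The FPKM summed over the 30 members was 5884 ± 537 in controls and 6098 ± 464 with noggin (mean ± SD, n = 3 each, two-sided exact permutation p = 0.7). The same sum was 0.838%, 0.951% and 1.00% of all FPKM in control replicates 1, 2 and 3 and 0.484%, 0.830% and 0.501% in noggin replicates 1, 2 and 3. The groups did not overlap in this share (exact permutation p = 0.1, the smallest that 3 against 3 libraries allow). The total itself was 632704 ± 36697 FPKM over the controls and 1056190 ± 224333 FPKM with noggin.

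**Figure D1:**
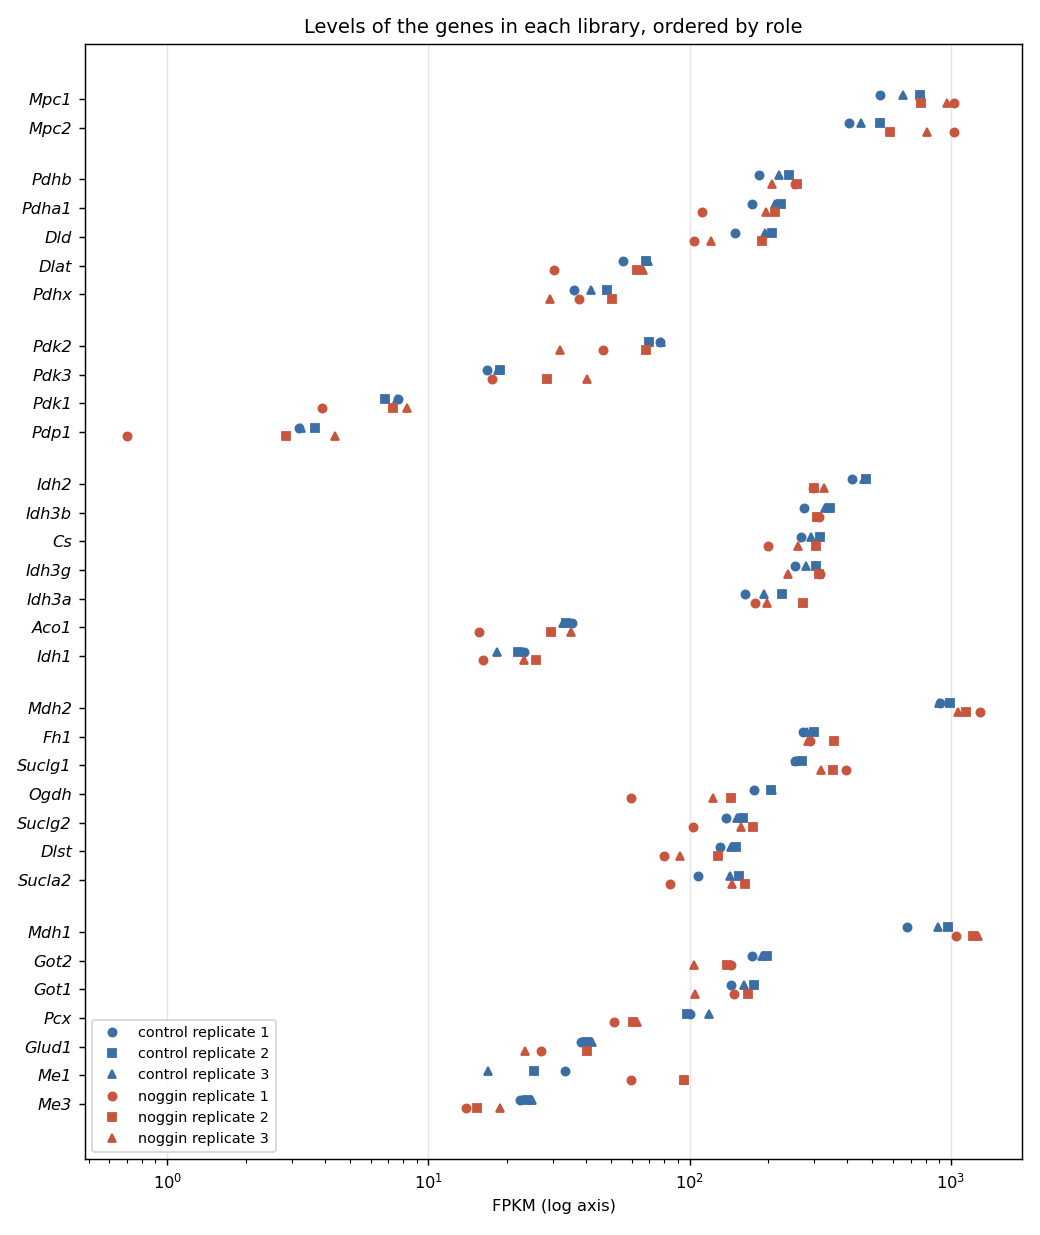
FPKM of each gene on a log axis in the 3 control (blue) and 3 noggin (red) libraries, with genes grouped from top to bottom as pyruvate carriers, pyruvate dehydrogenase complex, its kinases and phosphatase, citrate to oxoglutarate, oxoglutarate to oxaloacetate, and malate shuttle and anaplerosis. Me1 lies at 16.9 to 33.2 FPKM in control and 59.5 to 95.2 FPKM in noggin libraries, and groups do not overlap for 11 of the 30 members.

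Levels spanned more than 2 orders of magnitude on the FPKM scale. In controls the mitochondrial and cytosolic malate dehydrogenases, Mdh2 (931 ± 52.4 FPKM) and Mdh1 (849 ± 151 FPKM), led the list, with overlapping libraries. Mpc1, Mpc2 and Idh2 followed, each overlapping the next. Below Idh2 came a step without overlap to Idh3b, Cs, Fh1, Idh3g and Suclg1, whose means ran from 315 to 259 FPKM. Another step without overlap led to a block of 11 genes, from Pdhb at 214 FPKM to Pcx at 105 FPKM, in which each neighbour overlapped the next. The lowest were Pdk1 at 7.36 ± 0.461 FPKM and the phosphatase gene Pdp1 at 3.38 ± 0.272 FPKM. The other regulators, Pdk2 and Pdk3, were higher, at 74.8 ± 4.28 and 18.0 ± 1.06 FPKM.

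Both pyruvate carrier genes were higher in every noggin library than in every control library, but neither passed the test. Mpc2 was at 409, 536 and 452 FPKM in control replicates 1, 2 and 3 and at 1030, 582 and 812 FPKM in noggin replicates 1, 2 and 3 (log2 fold change 0.76, SE 0.260, limma adjusted p = 0.126). Mpc1 was at 534, 762 and 653 FPKM in the controls and at 1030, 767 and 962 FPKM in the noggin libraries (0.50, SE 0.233, adjusted p = 0.209). The gap was narrow in noggin replicate 2, which lay just above control replicate 2 for both genes. With the trend on transcript length removed, Mpc2 was at 0.17 and Mpc1 turned to -0.14. Without noggin replicate 2, Mpc2 was called higher (0.98, adjusted p = 0.0314), in a setting where 18.9% of all tested genes were called.

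None of the 5 genes of the pyruvate dehydrogenase complex was called, none had an unadjusted p under 0.05 and all overlapped between groups. Their log2 fold changes ran from -0.44 to 0.16. The largest was that of Dld, which encodes the dihydrolipoamide dehydrogenase shared with the oxoglutarate dehydrogenase complex. Dld was at 149, 207 and 194 in the controls against 104, 189 and 121 FPKM with noggin (-0.44, 95% interval -1.05 to 0.17). Noggin replicate 2 lay within the controls and the others below them. Pdha1 and Pdhb, the subunits of the decarboxylating enzyme, were at -0.27 (interval -0.91 to 0.36) and 0.16 (interval -0.29 to 0.60). Dlat, the acetyltransferase core, was at -0.34 and Pdhx, the protein that binds Dld to it, at -0.13. These intervals are wide enough to hold moderate differences in either direction.

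Among the regulators of this complex, the kinases that switch it off by phosphorylation had values of both signs, and 0 of 4 genes were called. Pdk2, the most abundant of them, was at 77.2, 69.9 and 77.3 in the controls against 46.7, 68.1 and 31.8 FPKM with noggin (log2 fold change -0.67, SE 0.277, adjusted p = 0.174). All noggin libraries were lower, noggin replicate 2 only just. Pdk3 was at 16.8, 18.8 and 18.4 in the controls against 17.6, 28.5 and 40.3 FPKM with noggin (0.58, SE 0.308, adjusted p = 0.264), with noggin replicate 1 inside the range of the controls. Pdk1 was at -0.21 and Pdp1, the phosphatase that switches the complex on, at -0.42. Without noggin replicate 2, where 18.9% of all tested genes were called, Pdk2 was lower (-0.94, adjusted p = 0.0355).

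From citrate synthesis to oxoglutarate, 0 of 7 genes were called and 1, Idh2, had an unadjusted p under 0.05. Idh2 (chromosome 7, 80094846 to 80115392, mm10) encodes the mitochondrial NADP-dependent isocitrate dehydrogenase. It was at 416, 474 and 464 in the controls against 296, 300 and 327 FPKM with noggin, with means of 452 ± 31.0 and 308 ± 17.0 FPKM (mean ± SD, n = 3 each). The groups were well apart, and each was tight. The log2 fold change was -0.55 (SE 0.173, limma adjusted p = 0.111). With the length trend removed it became -1.12 (SE 0.170, adjusted p = 0.0426), and Idh2 was the only member called lower. That value depends on the median length of 1068 bases used for Idh2, and other lengths were not tried. Idh2 was also called lower after quantile normalization (-1.24, adjusted p = 0.0165) and with all libraries rescaled to the same total (-1.27, adjusted p = 0.0283).

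The NAD-dependent isocitrate dehydrogenase, which drives the cycle itself, has 3 subunit genes with values nearer 0. Idh3a, the catalytic subunit, was at 0.15 (interval -0.38 to 0.67), and Idh3b and Idh3g at -0.02 and 0.04. Idh1, the cytosolic NADP-dependent enzyme, was at 21.2 ± 2.51 FPKM in controls and 21.7 ± 5.0 FPKM with noggin, its log2 fold change being 0.01 (interval -0.56 to 0.59). Cs, citrate synthase, was at -0.21 (interval -0.70 to 0.27) and Aco1, the cytosolic aconitase, at -0.41 (interval -1.11 to 0.30). The low mean of Aco1 came from noggin replicate 1, at 15.7 FPKM, while noggin replicates 2 and 3 were at 29.4 and 35.1 FPKM beside 32.7 to 35.5 FPKM in controls.

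From oxoglutarate to oxaloacetate, 0 of 7 genes were called, and 4 did not overlap between groups, 2 in each direction. Ogdh (chromosome 11, 6291633 to 6356642), the decarboxylating subunit of the oxoglutarate dehydrogenase complex, had the lowest log2 fold change of all members. It was at 176, 205 and 207 in the controls against 59.6, 144 and 123 FPKM with noggin (-0.94, SE 0.323, adjusted p = 0.128). Noggin replicate 1 was far below the rest, and without it the value was -0.55. Dlst, the succinyltransferase of the same complex, was at 131, 150 and 144 in the controls against 79.9, 129 and 91.5 FPKM with noggin (-0.52, SE 0.216, adjusted p = 0.174). With the length trend removed Ogdh was at -0.50 and Dlst at -0.37. Without noggin replicate 2, Dlst was called lower (-0.72, adjusted p = 0.0340) beside 18.9% of all tested genes called in either direction.

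The other genes of this stretch had log2 fold changes from -0.08 to 0.45. Suclg1, the subunit common to both succinate-CoA ligases, was at 253, 269 and 256 in the controls against 395, 353 and 319 FPKM with noggin (0.45, SE 0.174, adjusted p = 0.155), with no overlap. Its partners Sucla2 and Suclg2, which set whether ATP or GTP is formed, were at -0.08 each. Fh1, fumarase, was at 0.12 (interval -0.30 to 0.54), and Mdh2 at 0.32 (interval -0.17 to 0.80) without overlap between groups. With the length trend removed, Suclg1 was at 0.10 and Mdh2 turned to -0.06.

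The called gene, Me1 (chromosome 9, 86581371 to 86695953, minus strand, mm10), belongs to the last role group, with the malate shuttle and the reactions that feed or drain the cycle. Me1 was at 33.2, 25.3 and 16.9 FPKM in control replicates 1, 2 and 3 and at 59.5, 95.2 and 94.7 FPKM in noggin replicates 1, 2 and 3. Every noggin library was above every control library. It rose from 25.1 ± 8.16 to 83.1 ± 20.5 FPKM (mean ± SD over 3 libraries each), or by 1.70 on the log2 scale (SE 0.302, 95% interval 1.00 to 2.41, limma adjusted p = 0.0426). The fold change kept its sign in all 16 other settings, from 1.01 with libraries rescaled to the same total to 2.15 without replicate 1 of both groups, and was 1.99 with the length trend removed (adjusted p = 0.0385).

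The call of Me1 was close to the threshold. It was lost with a pseudocount of 0.1 (adjusted p = 0.0589), with every gene tested (0.116), without the mean-variance trend (0.0657) and with libraries rescaled to the same total (0.0882). Among the omissions, it was lost without control replicate 1, 2 or 3 (adjusted p = 0.131, 0.152 and 0.213), without noggin replicate 1 (adjusted p = 0.0539) and without replicate 1 of both groups (adjusted p = 0.181), these omissions all giving log2 fold changes of at least 1.46. Markers of mucous neck cells were higher with noggin too, and 5 of 5 did not overlap. Their sum over 5 genes was 2456 to 3362 FPKM in controls. In noggin replicates 1, 2 and 3 it was 25864, 10765 and 13025 FPKM. Mast cell markers went from 35.3 to 57.0 FPKM in controls to 119 to 174 FPKM in noggin libraries, with 3 of 5 higher and 1 lower without overlap. Without overlap, 3 of 7 enteroendocrine markers (sums of 441 to 2679 against 1893 to 28596 FPKM) and 2 of 4 erythroid markers (sums of 0.350 to 3.40 against 5.80 to 63.9 FPKM) were also higher. The part of these cells, and of the chief cells above, in the rise of Me1 was not tested.

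Me3, which encodes a mitochondrial malic enzyme, had a difference of the opposite sign. Me3 was at 22.4, 23.9 and 25.0 in the controls against 13.9, 15.3 and 18.8 FPKM with noggin (log2 fold change -0.55, SE 0.216, adjusted p = 0.159). All noggin libraries were below all controls. With the length trend removed the value was -0.06. In controls the libraries of Me1 and Me3 overlapped, and in noggin libraries Me1 was above Me3 in each. Me2, which also encodes a mitochondrial malic enzyme but is not a member, was at 51.2 ± 2.59 FPKM in controls. With noggin it was at 55.3 ± 32.6 FPKM, with overlap (log2 fold change -0.06, limma adjusted p = 0.931).

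The sequences before the annotated starts of Me1 and Me3 are shown because Me1 was the member called and Me3 is a mitochondrial counterpart among the members. Each is 150 bases before the RefSeq start and the first 3 bases from it, on the gene's strand (GRCm38.p6, the same assembly as mm10), and capitals mark matches to TGACNNNGC on either strand, the core letters of the antioxidant response element bound by NRF2. Windows are chr9:86695912-86696064 for Me1 and chr7:89632668-89632820 for Me3.
Me1: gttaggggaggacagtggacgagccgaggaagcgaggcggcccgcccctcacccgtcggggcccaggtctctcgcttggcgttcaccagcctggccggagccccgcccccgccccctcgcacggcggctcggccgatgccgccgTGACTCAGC
Me3: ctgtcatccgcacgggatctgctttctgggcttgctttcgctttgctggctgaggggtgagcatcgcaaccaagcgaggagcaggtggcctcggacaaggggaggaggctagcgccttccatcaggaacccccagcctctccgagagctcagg
The match in Me1 covers the last 6 bases before this RefSeq start and the first 3 from it. GENCODE bounds reach further upstream, to 86695953 for Me1 and from 89632392 for Me3. By those bounds the match and the whole Me3 window lie inside the genes. A second annotated start of Me1, whose window of the same size is chr9:86687275-86687427, held no match and is not printed. A match describes letters only.

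Windows of 250 bases before and 50 after the start were available for 30 of the 32 listed genes. The antioxidant letters stood in a window of 7 of these 30 genes (23.3%), beside 14.0% of all 27025 genes with windows. The other six were Dlst, Idh3g, Mdh1, Mpc1, Pdhb and Sucla2, of which Mdh1 and Mpc1 had higher and Dlst lower levels in all noggin libraries, without passing the test. The letters TNAAGGTCA of the estrogen-related receptor element stood in 0 of 30 (1.43% of all genes). Those of the NRF1 element stood in 2 (6.67%, beside 5.19%), and the GC box GGGCGG in 21 (70.0%, beside 38.2%). All were searched on both strands. A gene counted if any of its windows matched, with 41 windows for the 30 genes and 32851 for all 27025. The latter were not limited to genes that passed the filter on low values. Differences between these shares were not tested.

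Pcx (chromosome 19, 4510472 to 4621752) encodes pyruvate carboxylase, which makes oxaloacetate from pyruvate and refills the cycle. It was at 100.1, 97.2 and 118 in the controls against 51.3, 60.5 and 62.8 FPKM with noggin. The groups were well apart, at means of 105 ± 11.2 and 58.2 ± 6.08 FPKM (n = 3 each), but the log2 fold change of -0.84 missed the threshold (SE 0.179, limma adjusted p = 0.0604). It was called lower with libraries rescaled to the same total (-1.55), after quantile normalization (-1.23) and without noggin replicate 2 (-0.87, adjusted p = 0.0300). The share of all tested genes called in these settings was 8.93%, 4.45% and 18.9%. With the length trend removed Pcx, whose transcripts have a median length of 4061 bases, was at -0.41 (adjusted p = 0.255).

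None of the shuttle genes was called. Got2, the mitochondrial aspartate transaminase, was at 173, 198 and 190 in the controls against 144, 139 and 103 FPKM with noggin (-0.55, SE 0.192, adjusted p = 0.132), without overlap. Got1, its cytosolic counterpart, was at 144, 177 and 161 in the controls against 148, 167 and 105 FPKM with noggin (-0.22, interval -0.73 to 0.29), with overlap. Mdh1, the cytosolic malate dehydrogenase, was at 681, 974 and 894 in the controls against 1045, 1214 and 1271 FPKM with noggin (0.48, SE 0.234, adjusted p = 0.227), all noggin libraries being higher. Glud1, glutamate dehydrogenase, was at -0.44 (interval -1.0 to 0.12) and was called lower without noggin replicate 2 (-0.67, adjusted p = 0.0485), beside calls for 18.9% of all tested genes.

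**Figure D2:**
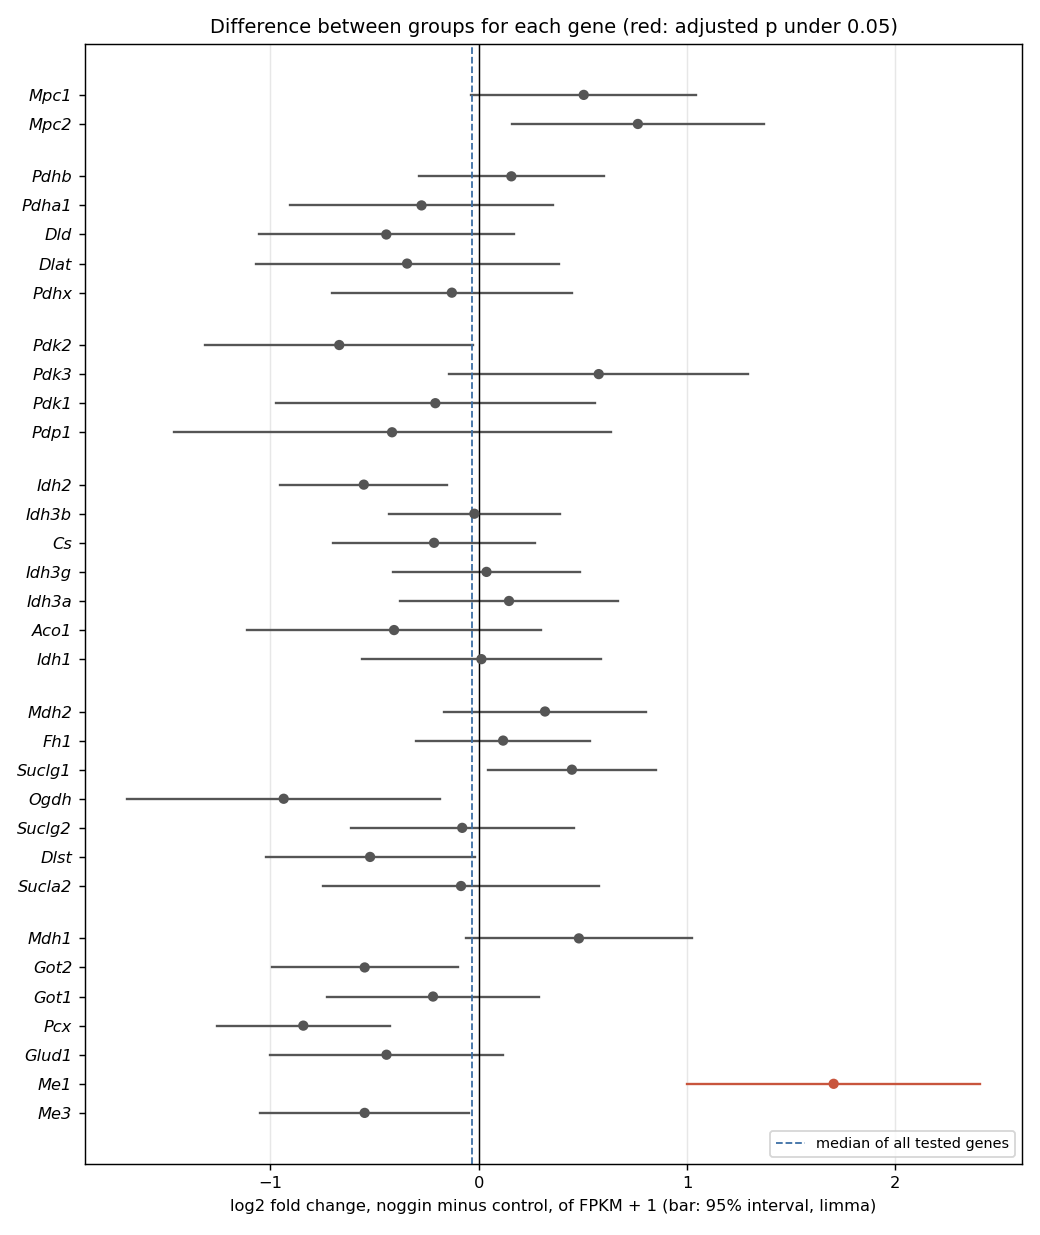
Log2 fold change of each gene (noggin minus control, of FPKM + 1) with its 95% limma interval, grouped by role from top to bottom as in the plot of levels. Me1, in red, is the gene whose adjusted p was under 0.05, at 1.70, and the dashed line marks the median of all tested genes, -0.03.

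Ratios of 2 genes within a library depend little on how that library was scaled, apart from the 1 FPKM added to each value. Of 12 pairs, 3 did not overlap between groups, at an exact permutation p of 0.1 each and an adjusted p of 0.4 over the 12 pairs. No pair could reach a lower p with 3 against 3 libraries. The log2 ratio of Me3 to Me1 was -0.55, -0.08 and 0.53 in controls and -2.02, -2.56 and -2.27 in noggin libraries, a difference of -2.25. It was -2.05 with the length trend removed. This was the widest separation of the 12.

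The log2 ratio of Got2 to Got1 was 0.26, 0.16 and 0.23 in controls and -0.04, -0.27 and -0.02 in noggin libraries. The mitochondrial transcript was thus above the cytosolic one in controls and below it in noggin libraries. In noggin replicates 1 and 3 they were nearly level. With the length trend removed the difference went from -0.33 to -0.16 and the groups overlapped. The log2 ratio of Pdk3 to Pdk2 was -2.14, -1.84 and -2.01 in controls and -1.36, -1.23 and 0.33 in noggin libraries. Its difference of 1.25 rested largely on noggin replicate 3, where Pdk3 was above Pdk2, and was 0.70 without it.

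Other pairs overlapped. The ratio of Idh2 to Idh1 was 4.35 ± 0.239 in controls and 3.79 ± 0.314 in noggin libraries (exact permutation p = 0.2). With the length trend removed the groups did not overlap in it (difference -1.14, which depends on the length used for Idh2). In that setting overlap was also absent for Mdh2/Mdh1 (from -0.16 to -0.48), Idh3a/Idh3b (from 0.17 to 0.54), Idh3a/Idh3g (from 0.11 to 0.62), Mpc1/Mpc2 (from -0.26 to -0.32) and Pdk1/Pdk2 (from 0.46 to 1.00). The ratio of Sucla2 to Suclg2, the ATP-forming over the GTP-forming subunit, was -0.17 ± 0.168 and -0.17 ± 0.109 (exact p = 0.9). Pdha1 to Pdhb was level in controls at -0.08 ± 0.0192, and in noggin replicates 1, 2 and 3 it was -1.18, -0.27 and -0.08.

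**Figure D3:**
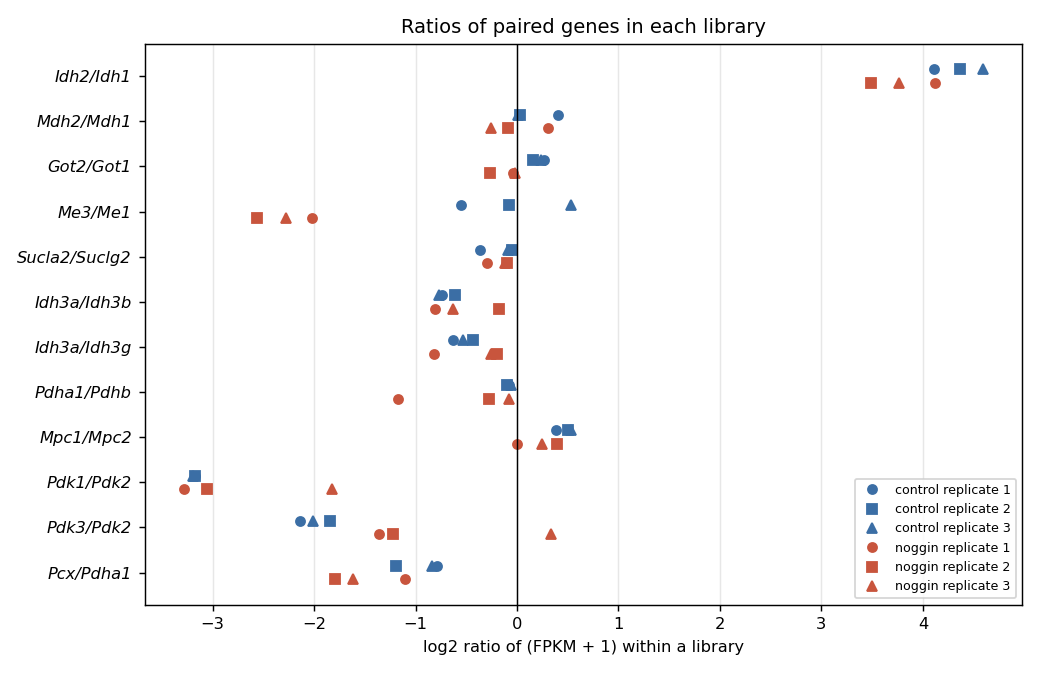
Log2 ratio of FPKM + 1 of 12 gene pairs in each control (blue) and noggin (red) library. Me3/Me1, Got2/Got1 and Pdk3/Pdk2 do not overlap between groups, the first by the widest gap, with differences of -2.25, -0.33 and 1.25.

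Of 40 other genes of the pathway and its neighbours, 35 could be tested and 0 were called by limma, with 5 higher and 10 lower at an unadjusted p under 0.05, beside 26.7% of all tested genes in either direction. Their median log2 fold change was -0.23, close to that of the members, and 21 of 35 did not overlap between groups (9 higher, 12 lower), beside 38.3% of all tested genes. The lowest values were those of Acss1, mitochondrial acetyl-CoA synthetase (-1.70, adjusted p = 0.0852), and D2hgdh, which oxidises 2-hydroxyglutarate (-1.59, adjusted p = 0.132). The highest were those of Pck2, mitochondrial phosphoenolpyruvate carboxykinase (1.41, adjusted p = 0.111), and Mrps36 (1.04, adjusted p = 0.0986).

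The 4 succinate dehydrogenase genes, in the same list, had values of both signs and were singled out after their values were seen. Sdha, the flavoprotein that oxidises succinate, was at 318, 371 and 397 in the controls against 149, 218 and 192 FPKM with noggin (-0.97, adjusted p = 0.0617). Sdhb, Sdhc and Sdhd had log2 fold changes of 0.48 each, with adjusted p = 0.201, 0.202 and 0.165. None of the 4 overlapped between groups. Sdha also has the longest transcripts, at a median of 2900 bases against 1142, 1993 and 1231 bases.

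Transcript length moved with the fold change over the members, as over the whole table. Across the 30 members the Spearman correlation of log2 fold change with transcript length was -0.43, and across 10542 tested genes with a length it was -0.55. Genes share the libraries and are not independent, so these are descriptions. The 16 members with transcripts of at least 2500 bases had a median of -0.41, and the 14 shorter ones included 3 under 1500 bases with a median of 0.04. By these median lengths, Idh2 (1068 bases) and Me1 (3290 bases) went against this trend. Idh2 was lower with a short and Me1 higher with a long transcript.

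**Figure D4:**
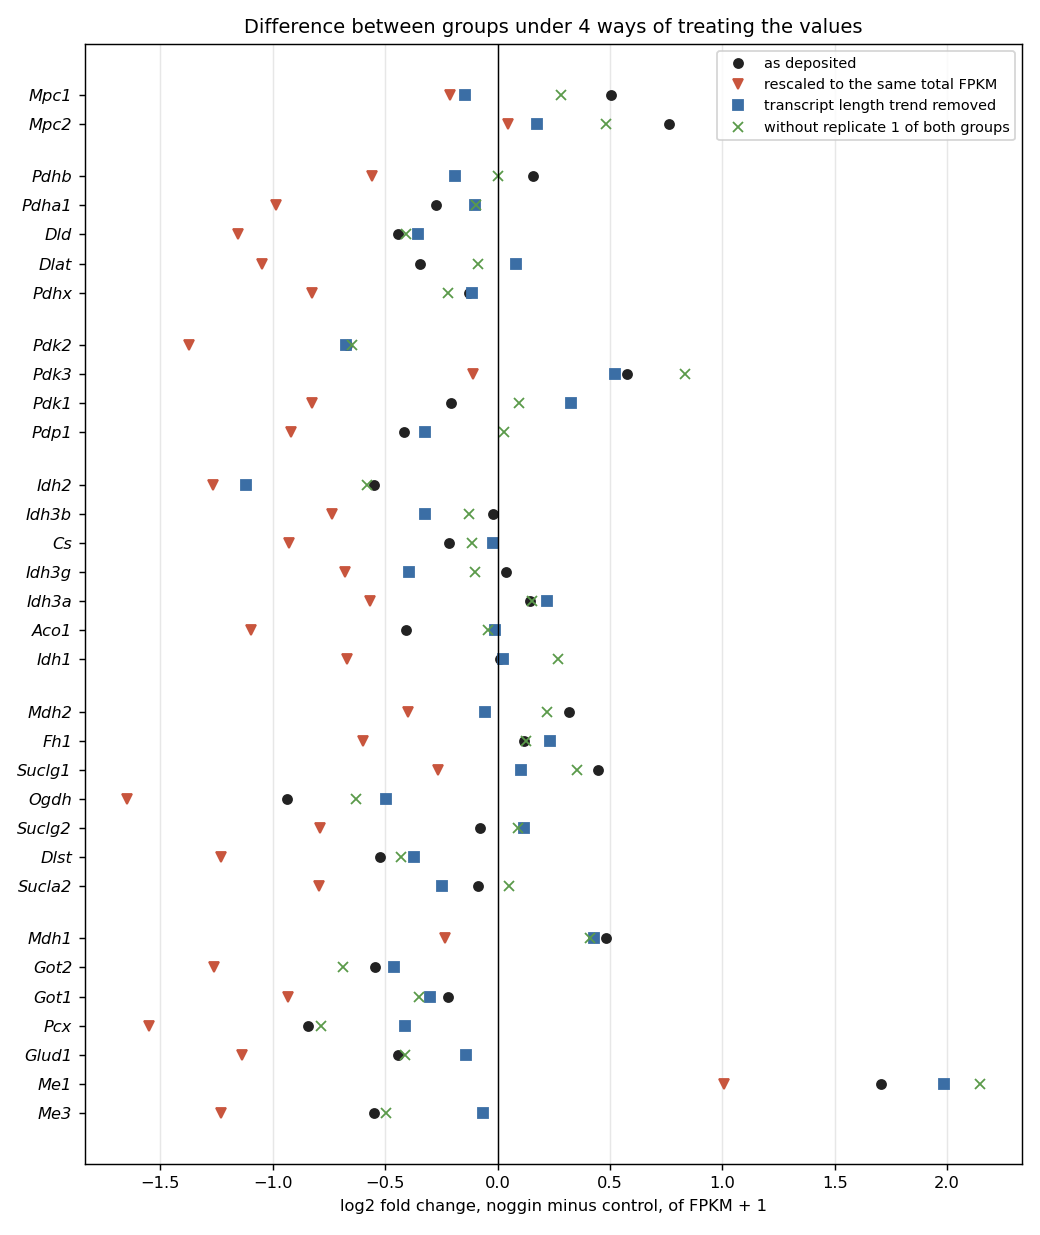
Log2 fold change of each gene (noggin minus control, of FPKM + 1) as deposited, with libraries rescaled to the same total, with the trend on transcript length removed and without replicate 1 of both groups, grouped by role as in the plot of levels. Me1 is the gene farthest to the right in all 4, from 1.01 to 2.15, and rescaling shifts all genes left, with a median of -0.87 over the 30 members.

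The number of members called lower changed with the scaling, and also when the length trend was removed or noggin replicate 2 left out. With all libraries rescaled to the same total, the median of all tested genes moved from -0.03 to -0.63 and that of the members from -0.21 to -0.87. In that setting 6 members were lower (Idh2, Ogdh, Dlst, Got2, Pcx and Me3) and 0 higher, beside 820 lower and 130 higher of all tested genes. With quantile normalization, which left the median of all tested genes at -0.02, the members' median was -0.58, with Idh2, Got2 and Pcx lower and Me1 higher. Scaling by the median ratio called Me1 alone, at a members' median of -0.25.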

How the data were processed

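RNA of 6 libraries (3 control, 3 noggin, grouped by sample title) was read as 50 base single-end reads from at least 1 ng of total RNA, per the labels' protocols, with a kit whose strandedness is not stated. The deposited table holds FPKM. Per the submitters' processing notes, the build was mm10 and bcl2fastq and FastQC 0.10.0 were used. For the aligner, quantifier, annotation and the counting of reads shared with pseudogenes or overlapping genes: not given in the sources used here. Depth as a read count is unknown.

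The test covered 10644 genes that reached 1 FPKM in 3 or more libraries, on log2(FPKM + 1) with limma 3.58.1 in R 4.3.3 (mean-variance trend, two-sided). A fold change on this scale understates that of low genes. A gene was called at a Benjamini-Hochberg adjusted p under 0.05. The test was tried on simulated data first, in 3 runs. It called 9.33%, 53.7% and 79.3% of the genes given an absolute log2 change of 1, 2 and 3, and 3.61% of its calls were false. A gene not called is not shown to be unchanged. Members, lists and tests were chosen with earlier results of these data known. Library values are given for called members, the highest and lowest 4, the largest difference in each role group and pairs without overlap. Lengths are medians over GENCODE M21 basic transcripts (GRCm38), a set chosen after seeing the data, and the length trend was removed per library by lowess (span 0.3). Alternatives were other pseudocounts, filters and scalings, no trend, the replicate block and the omission of each library, the last keeping the same genes. Leukocyte markers are not reported here.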

Additional observations from a re-analysis of the deposited data

How the results depend on the processing

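The number of members called higher was 0 instead of 1 with a pseudocount of 0.1, without a filter on low values, without the mean-variance trend, with libraries rescaled to the same total and without replicate 1 of both groups, and ran from 0 to 1 over the omissions of single libraries. The number called lower was 6 after rescaling, 3 after quantile normalization, 1 with the length correction and 0 to 4 over the omissions. All tested genes called were 8.93%, 4.45% and 0.664% in the first 3 of these, and 18.9% without noggin replicate 2, which gave the 4. The members' median was -0.87 after rescaling, -0.58 after quantile normalization and -0.34 to -0.01 over the omissions. Of the other pathway genes, 7 were lower after rescaling and 4 after quantile normalization, and over the omissions 0 to 1 were higher and 0 to 8 lower. The omission of replicate 1 of both groups was chosen after seeing the data.

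Some uncalled members changed sign. Rescaling gave Idh1 -0.67, Idh3a -0.57, Idh3g -0.68, Suclg1 -0.27, Fh1 -0.60, Mdh1 -0.23, Mdh2 -0.40, Pdhb -0.56, Pdk3 -0.11 and Mpc1 -0.21. Quantile normalization gave Idh1 -0.087, Idh3a -0.40, Idh3g -0.58, Suclg1 -0.21, Fh1 -0.48, Mdh1 -0.28, Mdh2 -0.45, Pdhb -0.41, Mpc1 -0.27 and Mpc2 -0.0034. Median ratio scaling gave Idh1 -0.026 and Idh3g -0.0025. The length correction gave Idh3g -0.39, Suclg2 0.12, Mdh2 -0.056, Pdhb -0.19, Dlat 0.084, Pdk1 0.33 and Mpc1 -0.14. Without replicate 1 of both groups Idh3g was at -0.10, Sucla2 at 0.050, Suclg2 at 0.089, Pdk1 at 0.10 and Pdp1 at 0.028. Over the omissions of single libraries the range was -0.032 to 0.17 for Idh3g, -0.12 to 0.044 for Idh3b, -0.27 to 0.20 for Sucla2, -0.12 to 0.20 for Idh1, -0.23 to 0.15 for Suclg2, -0.45 to 0.012 for Pdha1, -0.54 to 0.014 for Dlat, -0.39 to 0.070 for Pdk1, -0.77 to 0.056 for Pdp1, -0.031 to 0.27 for Idh3a and -0.33 to 0.058 for Pdhx. The cause was not tested.

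Deviations of same-numbered libraries from their group means correlated at 0.11, -0.14 and 0.01. With 3 libraries per group this cannot settle whether the replicate numbers in the titles pair the libraries. Steps between low values, described below, set replicate 1 of both groups apart from the rest. With the replicate block Me1 was at 1.70 (limma adjusted p = 0.0468), 1 member was higher and 0 lower, and calls over all genes went from 186 higher and 74 lower to 128 and 32.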

Other observations

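Steps between low values gave a hint of relative depth. Among genes above 0 and under 0.2 FPKM in both libraries of a pair, ratios piled up on 1 value in each of the 6 pairs among control replicates 2 and 3 and noggin replicates 2 and 3, with 8% to 11.9% of genes in a bin 0.02 wide on the log2 scale. In the 9 pairs that involve control replicate 1 or noggin replicate 1, the fullest bin held 0.885% to 1.3%. If the most frequent ratio is 1 read against 1 read, a read was worth 1.15 times as much FPKM in control replicate 3, 1.34 times in noggin replicate 2 and 2.14 times in noggin replicate 3 as in control replicate 2. What sets the first replicates of both groups apart was not tested. Without them Me1 was at 2.15 and Idh2 at -0.58 on the log2 scale, and neither was called by limma (adjusted p = 0.181 and 0.270).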
